A study of Mus musculus with 32 samples.

Results

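Tubulin isotypes are the alternative gene products from which a cell builds its microtubules, and 10 of their genes were followed here in mice that lack myotubularin, the protein lost in X-linked myotubular myopathy. The genes were taken by symbol from a table of 54838 genes, and no measured value enters the rule. They comprise the beta tubulins Tubb6, Tubb2a, Tubb2b, Tubb5 and Tubb4b and the alpha tubulins Tuba1a, Tuba1b, Tuba1c, Tuba4a and Tuba8. All 10 were found in the table and all 10 passed the filter on low counts at every age. Poly(A) RNA was sequenced from skeletal muscle, the tibialis anterior according to the study's methods, of C57BL6/J mice that were either wild type (WT) or Mtm1 knockout (KO). The KO line lacks exon 4 of Mtm1 and was made on another strain before it was rederived onto this background, and WT mice served as controls. Libraries were made at postnatal days 1, 14, 21 and 35 (P1, P14, P21 and P35), with 4 per genotype and age and 32 in all. The labels number the libraries of a group without naming animals, so a P value measures the spread between these libraries.

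Alpha and beta tubulin pair into dimers, and the dimers polymerise into microtubules. In a muscle fibre microtubules run as a lattice under the plasma membrane and around the nuclei, where they position organelles and carry cargo. The isotypes share a highly similar body and differ mostly in a short acidic tail at the C-terminus, which enzymes trim or decorate with extra residues. Mtm1 encodes myotubularin, a lipid phosphatase that acts on phosphoinositides of the endosomal system.

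The coding ends of Tuba1c, Tuba4a and Tuba8 are shown because the last encoded residue separates them. The lines below give the last 48 coding bases, 5′ to 3′ on the sense strand, from the GENCODE M21 transcripts of GRCm38, with the final sense codon in capitals before the stop codon.
Tuba1c: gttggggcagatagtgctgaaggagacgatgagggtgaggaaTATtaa
Tuba4a: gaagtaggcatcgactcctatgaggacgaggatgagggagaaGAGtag
Tuba8: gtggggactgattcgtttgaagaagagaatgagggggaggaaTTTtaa
Tuba1c ends in a codon for tyrosine, as its relatives Tuba1a and Tuba1b do, the residue removed and restored in the detyrosination cycle. Tuba4a ends in glutamate, so its product is made without that tyrosine, and Tuba8 ends in phenylalanine.

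The coding ends of Tubb2a and Tubb2b are shown as the last 60 bases, from the same source, because these neighbouring genes are hard to tell apart by short reads. Capitals mark the 3 bases at which they differ.
Tubb2a: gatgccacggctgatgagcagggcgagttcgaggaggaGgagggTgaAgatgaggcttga
Tubb2b: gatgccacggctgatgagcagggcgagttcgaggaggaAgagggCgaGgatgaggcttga
Over the whole coding sequence Tubb2a and Tubb2b were 96.5% identical. The corresponding identities were 98.3% for Tuba1a and Tuba1b, 97.9% for Tuba1b and Tuba1c, and 97.1% for Tuba1a and Tuba1c. All other pairs within the alpha or beta family lay between 79.2% and 85.3%.

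In GRCm38 the closest relatives are also neighbours. Tuba1b (chr15:98931425-98934565, minus strand), Tuba1a (chr15:98949837-98953703, minus strand) and Tuba1c (chr15:99029891-99038110, plus strand) form a cluster on chromosome 15. Tubb2a (chr13:34074274-34078007) and Tubb2b (chr13:34126748-34130466) lie next to each other on the minus strand of chromosome 13. Tubb6 lies at chr18:67390717-67402749 on the plus strand, Tubb5 at chr17:35833921-35838306 and Tubb4b at chr2:25222160-25224702, both on the minus strand. Tuba4a was annotated at chr1:75214228-75219865 on the minus strand and Tuba8 at chr6:121210696-121226854 on the plus strand. Their principal transcripts have 4 exons, except that of Tuba8, which has 5. In Tubb6, Tubb5, Tuba4a and Tuba8 no 100-base window of the transcript occurred in another gene's transcript. The share of windows that also occurred elsewhere was 65.1% for Tuba1a, 69.5% for Tuba1b, 53.4% for Tuba1c, 36.9% for Tubb2a, 27.8% for Tubb2b and 29.2% for Tubb4b, the last mostly with a pseudogene copy. The levels of these 6 genes are therefore uncertain as far as the counting program divided shared reads. Gm49450 overlaps Tuba1a and Tuba1b on the same strand, and Fam166a, Stk16, Gm41396 and Gm15856 overlap Tubb4b, Tuba4a, Tuba1b and Tuba8, in that order, from the opposite strand. The strand setting of the counting is not given in the sources used here.

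The libraries held 49321019 to 85631391 counts. Mtm1, the targeted gene, read 20.6, 19.3, 20.6 and 21.8 counts-per-million (CPM) in the WT libraries of P14 and 3.88, 4.51, 4.12 and 3.79 CPM in the KO libraries. It was lower in every KO library than in every WT library at each age, although at P1, where WT held only 5.26 to 6.02 CPM, the difference did not pass the test (edgeR adjusted P = 0.0668). The counts are per gene and do not show the deleted exon itself. The summed level of 9 skeletal muscle fibre markers was 97071 to 232315 CPM from P14 to P35 and 19379 to 37767 CPM at P1. The P1 libraries also held 1952 to 7104 CPM of 12 keratinocyte markers, against 6.81 to 35.8 CPM at later ages. In bulk muscle, fewer cells of a type and less RNA per cell cannot be told apart.

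Tubb6, a beta tubulin that is scarce in most adult tissues, had the widest separation between the genotypes of any member at P14, P21 and P35. At P1 its levels overlapped, with 121, 136, 123 and 126 CPM in WT, against 133, 122, 126 and 92.2 CPM in KO. By P14 the WT libraries read 45.7, 50.4, 35.3 and 24.2 CPM, and those of KO 83.4, 76.0, 88.5 and 74.7 CPM. All 4 KO libraries of P14 stood above the highest WT library.

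At P21 Tubb6 read 36.6, 31.4, 33.1 and 26.3 CPM in WT, values that overlapped those of P14. The KO libraries of P21 read 175, 139.7, 102 and 114 CPM, all far above the WT libraries of that age. At P35 the WT libraries held 13.1, 20.2, 12.0 and 17.8 CPM, and those of KO 93.2, 135, 201 and 176 CPM. The KO libraries of P21 and P35 thus overlapped the range of newborn muscle, while the WT libraries were at their lowest at P35.

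The KO over WT difference in Tubb6 was -0.08 on the log2 scale at P1 (SE 0.111, edgeR adjusted P = 0.811). It was 1.05 at P14 (SE 0.200, 2.07-fold), which did not pass the test over all 15728 genes (edgeR adjusted P = 0.146). At P21 Tubb6 was higher in KO by 2.07 (SE 0.167, 4.19-fold, edgeR adjusted P = 0.00016) and at P35 by 3.29 (SE 0.261, 9.75-fold, edgeR adjusted P = 6.28e-05). The P14 result turned on how the libraries were modelled. WT and KO libraries of P14 with equal numbers deviated together, and in a fit blocked by replicate number the difference of 1.09 (SE 0.132) passed, at an edgeR adjusted P of 0.00206. DESeq2 gave 1.05 at P14 with an adjusted P of 0.000209.

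Ordered by mean level, the groups ran from KO P35 (151 ± 47.4 CPM, SD, n = 4) through KO P21 (133 ± 32.5), WT P1 (126 ± 6.65) and KO P1 (118 ± 18.1), with overlapping ranges between each pair of neighbours. KO P14 followed at 80.7 ± 6.46 CPM, below every library of KO P1. WT P14 (38.9 ± 11.6) and WT P21 (31.9 ± 4.31) overlapped each other and lay below KO P14. WT P35 was the lowest at 15.8 ± 3.85 CPM, below every library of WT P21.

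**Figure D1:**
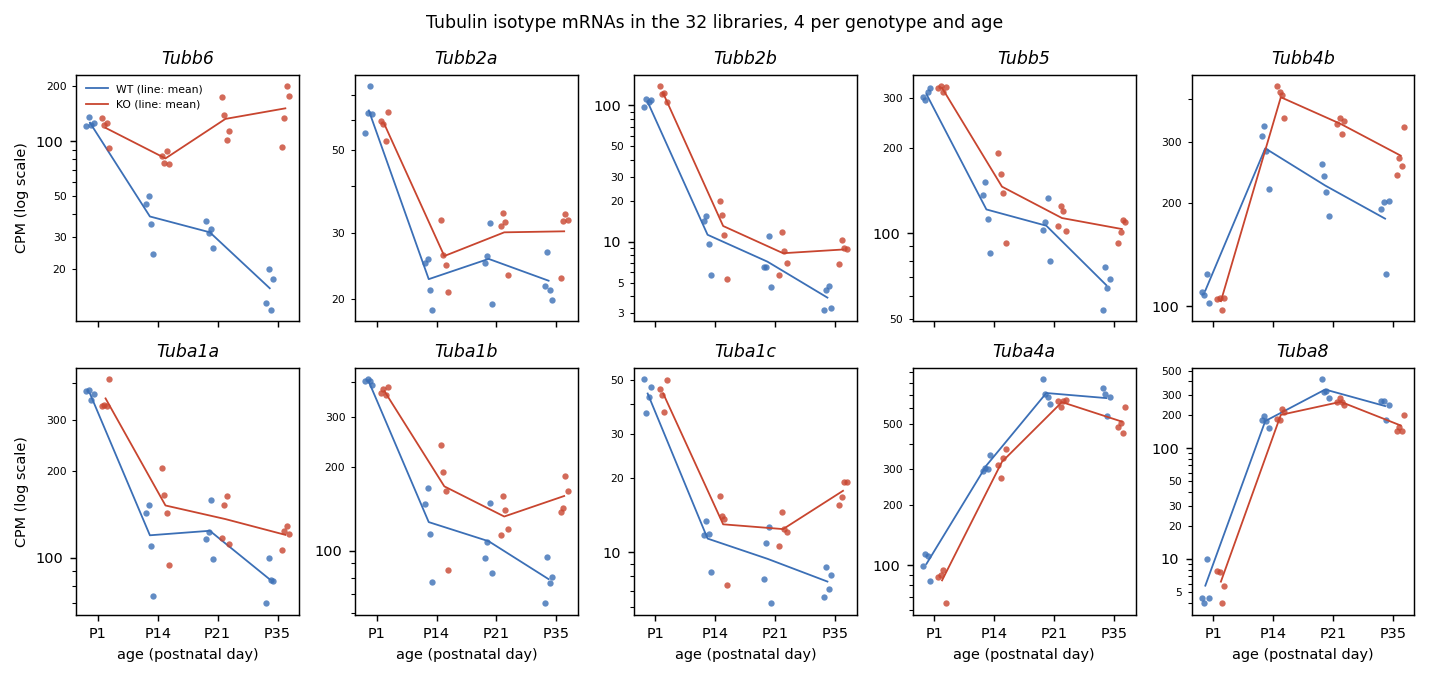
Levels of the 10 tubulin isotypes in CPM (log axis) against age, 1 point per library and lines through the means of the 4 WT and 4 KO libraries. Tubb6 ran from 12.0 to 20.2 CPM in WT and from 93.2 to 201 CPM in KO at P35, while Tuba4a and Tuba8 were at their lowest at P1 in either genotype.

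Whether the KO effect on Tubb6 itself differed between ages was tested in the fit of all 32 libraries, calling a difference at an adjusted P under 0.01. The effect at P35 exceeded that at P14 by 2.21 on the log2 scale (SE 0.300, edgeR adjusted P = 1.41e-05). Between successive ages the increments were 1.14 from P1 to P14 (edgeR adjusted P = 0.333), 1.00 from P14 to P21 (edgeR adjusted P = 0.0895) and 1.21 from P21 to P35 (edgeR adjusted P = 0.0301), and none of them passed. No other member passed in these 3 comparisons, and 0.0161%, 0.425% and 0.463% of all genes did. Tubb6 was the only member called for P35 against P14, where 8.53% of all 18583 genes were called. Tuba1c came next, with a difference of 1.03 that missed the threshold at an edgeR adjusted P of 0.0107.

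The number of members that passed the test rose with age. A gene was called when its adjusted P was under 0.01 and its fold change was beyond 1.5 in either direction. At P1 no member was called by edgeR or DESeq2, 1 of 10 had an unadjusted P under 0.05, and edgeR called 0.0442% of all genes tested. At P14 edgeR called no member and 0.0318% of all genes, with 2 of 10 members at an unadjusted P under 0.05. DESeq2 called 1 member at P14. The shares of all genes called by DESeq2 or in the replicate-block fit are not given in this report, nor are those at an unadjusted P under 0.05. At P21 edgeR called 2 members, both higher in KO, where 3.18% of all genes were called higher and 1.5% lower. At P35 the test called 5 members, all higher in KO, where 8.49% of all genes were called higher and 7.52% lower. The median log2 difference of the 10 members was -0.06, 0.24, 0.23 and 0.66 at P1, P14, P21 and P35, beside 0.01, 0.000285, 0.00825 and 0.04 for all genes tested.

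Scaling bears on these counts. The tests used TMM scaling, which centres the bulk of genes by a factor for each library. With plain library totals the median of all genes at P35 was 0.44 on the log2 scale, and 4350 genes were called higher and 326 lower, against 1324 and 1172 with TMM. At P21 the totals gave 1052 higher and 105 lower, against 482 and 227. Member differences, CPM sums and overlaps of libraries are with TMM unless another scaling is named.

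At P1 the members differed little between genotypes. The log2 differences ran from -0.26 for Tuba4a (SE 0.136, edgeR adjusted P = 0.532) to 0.22 for Tubb2b (SE 0.0901, edgeR adjusted P = 0.417), with 4 positive and 6 negative. In Tuba1b the libraries did not overlap with TMM, with 367, 378, 361 and 384 CPM in KO and 406, 411, 404 and 391 CPM in WT. Without the TMM factors they would overlap, through KO replicate 4. Tuba1b was the only member without overlap at P1 with TMM, when 4.78% of all genes were lower in KO without overlap.

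At P14 all 10 log2 differences were positive, from 0.06 for Tuba4a to 1.05 for Tubb6. Only Tubb6 and Tubb4b had KO libraries that were all above the WT libraries, where 3.28% of all genes did. Replicate 4 of P14 was the lowest library for 9 of the 10 members in WT and for 8 of the 10 in KO. That replicate also had the lowest summed level of 6 immature fibre markers in either genotype, 150.1 CPM among WT libraries that reached 714 and 205 CPM among KO libraries that reached 1676, and the part of these markers in the tubulin levels was not tested. Without replicate 4 of both genotypes the Tubb6 difference was 0.91 (SE 0.124, edgeR adjusted P = 0.0447).

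**Figure D2:**
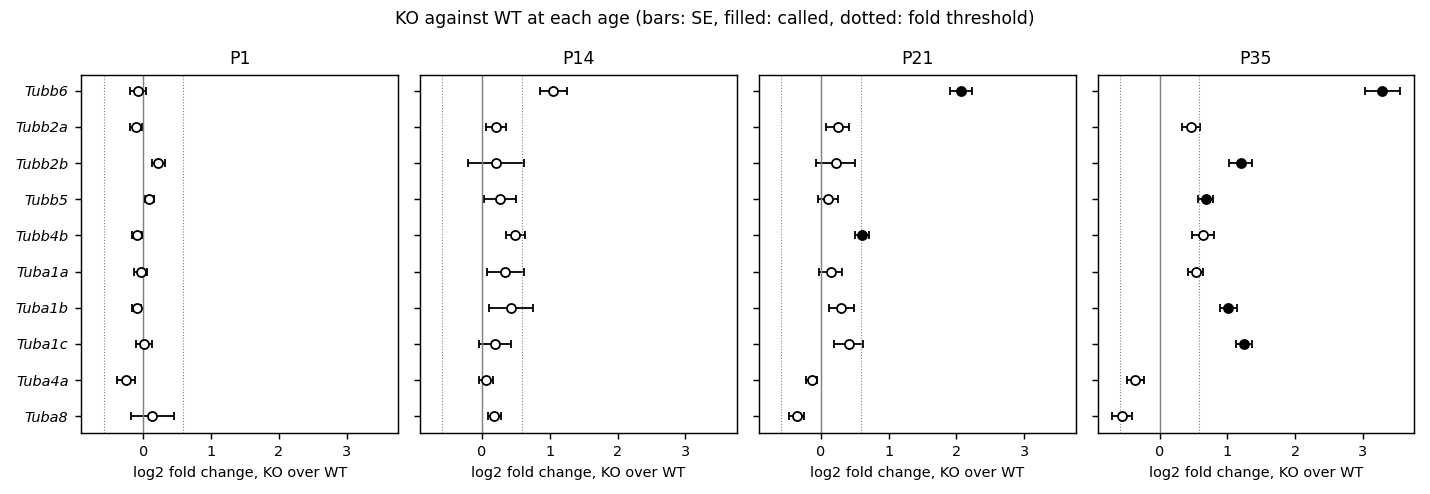
Log2 fold change of KO over WT for each tubulin isotype at the 4 ages, with bars for the SE and filled points for members called at an adjusted P under 0.01 and beyond 1.5-fold. No point is filled at P1 or P14, Tubb6 and Tubb4b are filled at P21, and Tubb6, Tubb2b, Tubb5, Tuba1b and Tuba1c at P35, while Tuba4a lies below 0 at P21 and P35. All points are with TMM scaling, and with library totals, which are not plotted, Tuba4a was above 0 at P21 and P35.

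Tubb4b, a broadly expressed beta tubulin that is also a main component of cilia, was the other member called at P21. At that age it read 259.9, 239, 215 and 183 CPM in WT muscle and, in KO muscle, 339, 354, 318 and 346 CPM. Every KO library lay above every WT library, as had been the case at P14, where WT held 314, 335, 284 and 219.6 CPM and KO 439, 421, 411 and 353 CPM. The difference at P14 was 0.49 (SE 0.133, edgeR adjusted P = 0.431), and at P21 it was 0.61 (SE 0.0995, 1.52-fold, edgeR adjusted P = 0.00349). The P14 result also depended on the model. Over the alternative settings other than leaving out libraries, its difference ran from 0.487 to 0.573. The adjusted P fell under 0.01 in at least 1 of them, but the difference stayed under the required fold in all. The P21 call was lost when WT replicate 3 or 4 or KO replicate 2 or 4 was left out, with differences of 0.52 to 0.66 over all such fits. At P35 the WT libraries held 192, 201, 124 and 202 CPM, and those of KO 241, 269.6, 256 and 331 CPM, again without overlap. The P35 difference of 0.63 (SE 0.163) was about as large as that at P21 but missed the threshold (edgeR adjusted P = 0.0122). It was called by DESeq2, with library totals, with no filter or a filter of at least 10 counts in every library, with the replicate block and in the fit of all 32 libraries, but not with DESeq2's size factors in edgeR.

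Tubb5, the most widely used beta tubulin of dividing cells, separated later. At P21 its levels overlapped, with 103, 109.7, 133 and 79.7 CPM in WT, against 106, 125, 119.7 and 101 CPM in KO. At P35 the WT libraries had come down to 53.7, 76.0, 64.0 and 68.7 CPM, and the KO libraries stayed at 92.0, 101, 111 and 109.7 CPM, all above the WT range. The difference at P35 was 0.68 (SE 0.110, 1.60-fold, edgeR adjusted P = 0.00123).

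Tubb2a and Tubb2b, best known from neurons, gave unequal results. Tubb2b was scarce by P35, at 3.19, 4.45, 4.72 and 3.30 CPM in WT, against 6.93, 10.4, 8.97 and 8.93 CPM in KO, with no overlap. It was higher in KO by 1.19 (SE 0.172, 2.29-fold, edgeR adjusted P = 0.000705). Tubb2a read 21.7, 26.6, 21.1 and 19.9 CPM in WT, against 22.8, 32.2, 33.6 and 32.4 CPM in KO at P35, so that KO replicate 1 fell within the WT range. Its difference of 0.46 (SE 0.136) was not called (edgeR adjusted P = 0.0224). Summed over the 2 genes, a quantity that does not depend on how reads were divided between them, the libraries overlapped at every age, and the log2 ratio of the means at P35 was 0.57. Transcripts of 7 neuron markers summed to 2.41 to 3.32 CPM in 7 of the 8 libraries of P1 and to 22.5 CPM in KO P1 replicate 4. They summed to at most 1.00 CPM in any library after P1, with Chat at 0 in all of these groups. At most 1 of them had enough counts to be tested after P1, and none was called between genotypes at any age.

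The 3 alpha tubulins of the chromosome 15 cluster, whose coding ends carry a tyrosine codon, shown above for Tuba1c, were without overlap between genotypes at P35, and 2 of them were called. Tuba1b, the alpha tubulin of most proliferating cells, read 64.8, 94.7, 76.6 and 80.3 CPM in WT, against 137, 143, 184 and 163 CPM in KO. The lowest KO library exceeded the highest WT library, and the difference was 1.01 (SE 0.13, 2.02-fold, edgeR adjusted P = 0.000411). Tuba1c, a close relative at a far lower level, read 6.59, 8.71, 7.12 and 8.07 CPM in WT, against 15.5, 16.8, 19.3 and 19.3 CPM in KO. Its difference of 1.24 (SE 0.115, 2.37-fold, edgeR adjusted P = 0.000116) was the largest among the alpha tubulins. Tuba1a, known for its role in the developing nervous system, read 69.7, 100.1, 84.0 and 83.3 CPM in WT, against 106, 124, 129 and 121 CPM in KO. Its libraries did not overlap, but the difference of 0.54 (SE 0.111, edgeR adjusted P = 0.00437) stayed under the required fold. At P21 none of the 3 was called and their libraries overlapped.

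Because these 3 genes share most of their sequence, their sum is the safer quantity. It still depends on how reads were divided with genes outside the sum. Gm17383 and Gm49450, for example, shared 547 and 531 windows of the Tuba1a transcript. The sum was 171 ± 25.6 CPM in WT and 295 ± 31.3 CPM in KO at P35 (SD, n = 4), with ranges of 141 to 204 and 259 to 333 CPM. The log2 ratio of the means was -0.08, 0.38, 0.22 and 0.79 at P1, P14, P21 and P35, and only at P35 did the libraries not overlap.

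Counted over all members, 7 of 10 had KO libraries entirely above the WT libraries at P35, namely Tubb6, Tubb2b, Tubb5, Tubb4b, Tuba1a, Tuba1b and Tuba1c, where 19.2% of all genes did. At P21 these were Tubb6 and Tubb4b, where 13.7% of all genes were higher without overlap. Tubb2a, Tuba4a and Tuba8 overlapped at every age. No member had KO libraries entirely below WT at P14, P21 or P35.

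Tuba4a and Tuba8 were the members with lower fitted levels in KO at P21 and P35, Tuba4a with TMM but not with library totals, and neither was called. Tuba8, an alpha tubulin enriched in muscle and testis, read 417, 323, 329 and 280.2 CPM in WT, against 260.0, 280.5, 259.9 and 245 CPM in KO at P21. At P35 the WT libraries held 266, 264, 181 and 247 CPM, and those of KO 143, 155, 143 and 198 CPM, with overlap through WT replicate 3 and KO replicate 4. The log2 difference was -0.36 at P21 (SE 0.110, edgeR adjusted P = 0.046) and -0.56 at P35 (SE 0.146, edgeR adjusted P = 0.0137). With library totals these became -0.16 at P21 (edgeR adjusted P = 0.225) and -0.15 at P35 (edgeR adjusted P = 0.342). Leaving out either of the overlapping libraries brought the P35 difference past the threshold with TMM. Tuba4a, the alpha tubulin encoded without a terminal tyrosine, read 755, 706, 549.8 and 679 CPM in WT, against 485, 509, 453 and 611 CPM in KO at P35. Its difference was -0.36 (SE 0.126, edgeR adjusted P = 0.0432), and with library totals in place of TMM the sign turned, to 0.04 at P35 and 0.06 at P21.

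Some of the marker lists also differed between genotypes at P21 and P35. Of 6 immature fibre markers, 2 were called higher in KO at P21 and 5 at P35, and their sum was 127 to 151 CPM in KO against 49.1 to 74.5 CPM in WT at P21. At P35 that sum was 169 to 279 CPM in KO against 33.1 to 43.6 CPM in WT. Of 8 macrophage markers, 4 were called higher at P21 and 5 at P35, with sums of 141 to 211 CPM in KO and 107 to 132 CPM in WT at P35. The 8 Schwann cell markers summed to 324 to 1294 CPM in KO and 97.2 to 606 CPM in WT at P35, and none was called by edgeR, although all 8 had an unadjusted P under 0.05 and DESeq2 called 2. The sum of 10 proliferating cell markers at P35 was 18.2 to 35.0 CPM in KO and 17.7 to 39.3 CPM in WT, and 1 of them was called, lower in KO. Of 5 satellite cell markers 2 were called lower at P21 and at P35, although the sum of the list was 61.6 to 87.4 CPM in KO and 52.8 to 67.3 CPM in WT at P21, and 46.9 to 68.0 and 44.6 to 56.0 CPM at P35. With TMM the 9 fibre markers summed to 97071 to 130463 CPM in KO and 148127 to 216651 CPM in WT at P35, without overlap, with a median log2 difference of -0.60. EdgeR called 1 of them, lower, and DESeq2 called 4, with 6 at an unadjusted P under 0.05. At P21 the fibre sums did not overlap with TMM either, at 161369 to 177925 CPM in KO and 178424 to 232315 CPM in WT. Without the TMM factors the fibre sums of WT and KO would overlap at both ages. Of 6 endothelial markers 2 were called lower at P35, and 1 keratinocyte marker was called higher at P21 and at P35. EdgeR called no fibroblast or red blood cell marker, while DESeq2 called 1 of 7 fibroblast markers at P35 and 1 of 6 red blood cell markers at P21. Apart from keratinocyte and neuron markers, no marker was at 0 in any of these groups, and the part of these cell types in the tubulin differences was not tested.

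The family was also remodelled by age in both genotypes. From P1 to P14 all 10 members were called in WT, 3 higher and 7 lower, where 24.2% of all 18583 genes were called higher and 29.3% lower. Tuba8 rose most, from 4.48, 4.04, 10.02 and 4.42 CPM to 178, 195, 175 and 153 CPM, by 4.93 on the log2 scale (SE 0.249, 30.5-fold, edgeR adjusted P = 9.65e-16). Tuba4a rose from 99.9, 113, 111 and 83.4 CPM to 294, 302, 301 and 352 CPM. Its log2 change was 1.62 (SE 0.128, edgeR adjusted P = 6.81e-12). Tubb4b rose from 109.9, 108, 124 and 102 CPM at P1 to the P14 values given above, by 1.38 (SE 0.135, edgeR adjusted P = 5.11e-10). With TMM no library of P14 overlapped P1 in these 3 genes. The size of the rise depended on the scaling. Over the alternative settings, library totals among them, it ran from 0.61 to 1.37 for Tubb4b, 0.83 to 1.62 for Tuba4a and 4.15 to 4.93 for Tuba8.

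The other 7 fell. Tubb2b went from 97.7, 112, 106 and 109 CPM to 14.3, 15.5, 9.64 and 5.68 CPM in WT, a log2 change of -3.23 (SE 0.310, edgeR adjusted P = 3.16e-10). The remaining changes in WT ran from -1.95 for Tuba1c, over -1.70 for Tubb6, -1.67 for Tuba1b and -1.62 for Tuba1a, to -1.35 for Tubb5. For Tubb6 the same alternative settings gave -2.45 to -1.71. Many marker lists fell over the same interval in WT. All 12 keratinocyte and all 6 immature fibre markers were called lower, the latter with sums of 16050 to 20973 CPM at P1 and 150.1 to 714 CPM at P14. So were 9 of 10 proliferating cell markers (312 to 354 CPM and 67.3 to 176 CPM), 6 of 7 fibroblast markers (17693 to 24136 CPM and 5747 to 11976 CPM), 6 of 8 macrophage, 4 of 5 neuron and 5 of 6 red blood cell markers tested. Of the satellite cell markers, 2 of 5 were called lower and 1 higher. All 9 fibre markers, 4 of 6 endothelial and 2 of 8 Schwann cell markers were called higher. The part of these cells in the changes of the tubulins was not tested.

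In KO muscle 9 of the 10 members were called from P1 to P14, each in the direction seen in WT, where 24.5% of all genes were called higher and 29.2% lower. Tuba8 rose by 4.99, Tubb4b by 1.97 and Tuba4a by 1.95, and Tubb2b changed by -3.22. Over the alternative settings the rise in KO was 1.24 to 1.97 for Tubb4b and 1.21 to 1.95 for Tuba4a. Tubb6 was the exception, with a change of -0.55 (SE 0.208) that was not called (edgeR adjusted P = 0.0181). It was called by DESeq2, with DESeq2's size factors in edgeR, with library totals and with a filter of at least 10 counts in every library. Leaving out KO P1 replicate 4 also gave a call. Its change differed from that in WT by the 1.14 given above, which did not pass the test.

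From P14 to P21 the rise of the adult alpha tubulins went on. Tuba4a rose in WT to 833, 701, 683 and 632 CPM, by 1.19 (SE 0.127, edgeR adjusted P = 1.67e-07), and in KO from 315, 269, 341 and 377 to 650.2, 609.9, 653 and 656 CPM, by 0.98 (SE 0.126, edgeR adjusted P = 2.87e-06). Tuba8 rose in WT by 0.95 (SE 0.211, edgeR adjusted P = 0.0016), a call that was lost without WT P21 replicate 1. In KO the Tuba8 libraries read 181, 177, 225 and 213 CPM at P14 and changed by 0.39 (edgeR adjusted P = 0.171). These were 2 members called higher in WT and 1 in KO, where 3.04% and 4.06% of all genes were. Tubb6 changed by 0.72 in KO (SE 0.209, edgeR adjusted P = 0.0114), just outside the threshold.

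From P21 to P35 the members called were Tubb6 and Tubb5 in WT, both lower, where 1.77% of all genes were. Tubb6 changed by -1.01 (SE 0.215, edgeR adjusted P = 0.00165) and Tubb5 by -0.69 (edgeR adjusted P = 0.00495). The Tubb5 call was lost on leaving out any of 6 of the 8 libraries of the step, all but WT P21 replicate 4 and WT P35 replicate 2. In KO edgeR called no member, with 4 of 10 at an unadjusted P under 0.05, and DESeq2 called 1, where edgeR called 6.34% of all genes. Tuba8 came nearest, at -0.71 (SE 0.211, edgeR adjusted P = 0.0135), and Tubb6 changed by 0.19.

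Levels can be compared between genes only per transcript length, so each member was expressed as CPM per kilobase of its principal transcript and as a share of its family. Among the 5 beta tubulins at P1, Tubb5 held 33.7% ± 1.42 in WT, Tubb6 20.8% ± 1.21, Tubb4b 20.1% ± 1.33, Tubb2b 14.1% ± 0.639 and Tubb2a 11.4% ± 0.984 (SD, n = 4). By P14 Tubb4b was the main beta tubulin, with 67.7% ± 1.84 in WT and 67.6% ± 2.32 in KO. Its share at P35 was 69.1% ± 4.85 in WT and 54.0% ± 5.09 in KO, and the libraries did not overlap.

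The Tubb6 share followed its level. In WT it went from 20.8% at P1 to 8.14% ± 0.938 at P14, 8.33% ± 0.378 at P21 and 5.52% ± 0.684 at P35. KO muscle had 19.4% ± 2.36, 12.3% ± 1.31, 21.2% ± 3.89 and 26.5% ± 5.33 at the same ages. At P35 the KO range of 20.7% to 33.5% lay wholly above the WT range of 4.59% to 6.22%. The summed beta tubulin level at P35 was 162 ± 26.8 CPM per kilobase in WT and 320 ± 50.2 in KO, with ranges of 124 to 185 and 256 to 373.

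Among the 5 alpha tubulins the order was overturned between P1 and P35. Tuba1b (46.6% ± 0.403) and Tuba1a (41.2% ± 1.11) made up most of the alpha tubulin mRNA of WT muscle at P1, with 7.22% for Tuba4a and 0.513% for Tuba8. At P35 Tuba4a held 53.9% ± 2.50 and Tuba8 24% ± 1.58 in WT, against 43.4% ± 3.01 and 16.9% ± 1.25 in KO. The combined share of Tuba1a, Tuba1b and Tuba1c, the genes with the terminal tyrosine codon, went from 92.3% to 42.8%, 25.3% and 22.1% over the 4 ages in WT. In KO it was 93.0%, 47.2%, 31.5% and 39.8%, and at P35 the KO range of 36.0% to 45.6% lay above the WT range of 17.1% to 25.6%. With TMM the summed alpha tubulin level overlapped at P35, at 438 ± 49.4 CPM per kilobase in WT and 417 ± 39.6 in KO. The TMM factors of P35 were 0.726 to 0.763 in WT and 0.961 to 1.05 in KO. Without these factors every KO library would lie above the WT libraries in this sum. These shares are descriptions of the same libraries as the levels and were not tested.

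**Figure D3:**
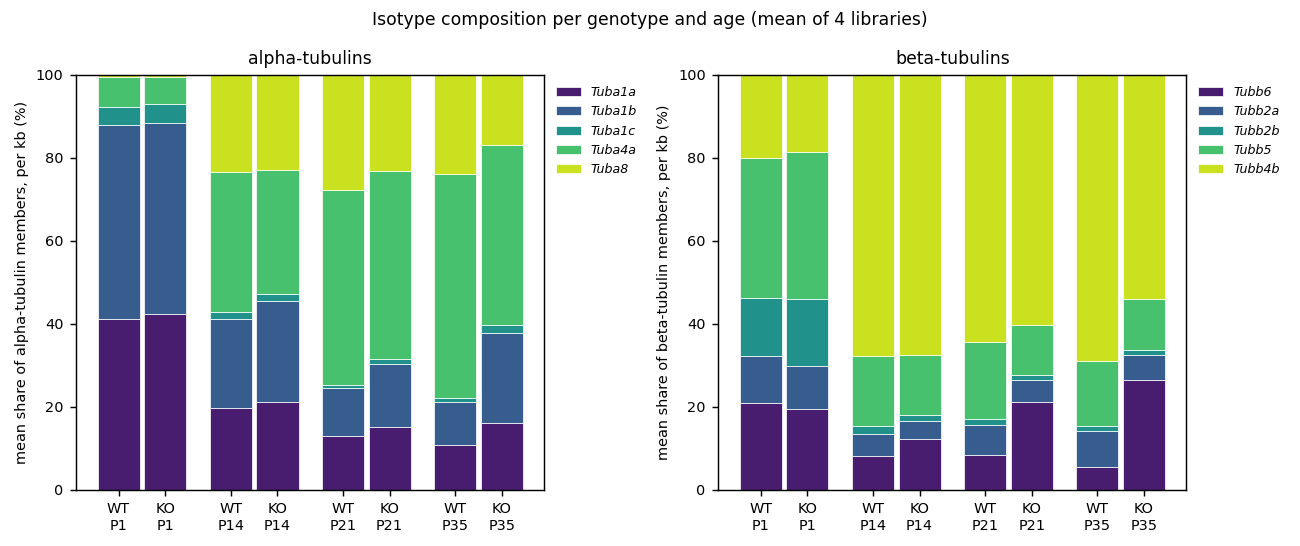
Share of each isotype in the summed CPM per kilobase of the 5 beta or 5 alpha tubulins, as stacked means of 4 libraries per genotype and age, in percent. In WT Tubb6 went from 20.8% at P1 to 5.52% at P35 and in KO it stood at 26.5% at P35, while the Tuba1 genes together held 22.1% in WT and 39.8% in KO at P35.

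Other genes of the microtubule system were counted in 6 lists of 116 genes in all, covering other tubulins, tubulin folding, tubulin modification, microtubule-associated proteins, nucleation and motors. None of 109 tested was called at P1 by edgeR or DESeq2, with 6 at an unadjusted P under 0.05, and none of 105 at P14, with 7. At P21 10 of 105 were called higher in KO and 1 lower, and at P35 16 of 107 were higher and 6 lower, beside the shares of all genes given above. Over these lists the median log2 difference at P35 ran from -0.28 for the other tubulins to 0.26 for the motors, against 0.04 for all genes.

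Among the enzymes that modify tubulin 3 of 18 were called higher at P21, and the same 3 at P35. Vash2, an enzyme that removes the terminal tyrosine from alpha tubulin, had 4.04 ± 0.233 CPM in WT and 13.8 ± 1.65 CPM in KO at P21, with no overlap, and differed by 1.78 (SE 0.104, edgeR adjusted P = 3.11e-05). At P35 its difference was 1.39 (SE 0.251, edgeR adjusted P = 0.00218). Atat1, which acetylates alpha tubulin inside the microtubule, was at 2.09 ± 0.293 CPM in WT and 4.53 ± 0.476 in KO at P21 and was higher by 1.12 at that age and by 1.12 at P35. Ttll1, a tubulin polyglutamylase, rose from 5.74 ± 0.340 CPM in WT to 11.4 ± 2.07 in KO at P21, by 1.00, and differed by 1.06 at P35. Ttll7, another polyglutamylase, was called lower at P35, by 0.74 on the log2 scale (1.67-fold), at 145 ± 30.6 CPM in WT and 85.5 ± 4.41 CPM in KO.

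Tubulin folding depends on a chaperonin and on a set of cofactors that assemble the dimer. None of the 21 genes of that list was called at P21, by either tool, with 12 at an unadjusted P under 0.05. At P35 the 3 called were all cofactors and all higher, Tbcc by 0.85 (9.06 ± 1.24 to 16.04 ± 1.95 CPM), Tbcb by 0.82 (16.8 ± 1.17 to 29.1 ± 6.01 CPM) and Tbca by 0.65 (21.0 ± 2.28 to 32.4 ± 3.83 CPM).

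Of 28 microtubule-associated protein genes tested at P21, 3 were called higher and 1 lower, and of 29 at P35, 4 higher and 4 lower. Dclk1, a doublecortin-like kinase that binds microtubules, was higher by 0.85 at P21 and by 2.29 at P35 (SE 0.228, edgeR adjusted P = 0.000143). Its WT libraries held 4.67 to 6.16 CPM and its KO libraries 20.6 to 42.7 CPM at P35. The light-chain bearing proteins Map1a and Map1b were higher by 1.99 and 0.91 at P35, and Mapre3, an end-binding protein, by 0.63 at P21. Map2, a stabiliser best known from dendrites, was lower by 0.82 (1.77-fold) at P21, and the end-tracking protein Clasp2 and the microtubule-associated Mtus1 were lower at P35, 1.55-fold and 1.79-fold.

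Among the genes for nucleation and the centrosome 1 of 13 was called at P21 and 2 at P35, all higher. Akap6, an anchoring protein of the muscle nuclear envelope, from which muscle microtubules grow, was at 84.7 ± 11.6 CPM in WT and 139 ± 16.9 in KO at P21, a difference of 0.73, and it differed by 0.72 at P35. Ninl was higher by 0.92 at P35, with 0.761 to 0.852 CPM in WT and 1.30 to 1.82 CPM in KO.

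Of 20 motor genes 3 were called higher at P21, and at P35 4 higher and 1 lower. Kif5c, a kinesin heavy chain, was scarce, at 1.07 ± 0.393 CPM in WT and 5.11 ± 1.25 CPM in KO at P35, and differed by 2.28 (SE 0.273, edgeR adjusted P = 0.000305). Dync1i1, a dynein intermediate chain, was scarcer still, at 0.247 ± 0.0772 and 0.991 ± 0.179 CPM, and differed by 2.01. The dynein light chain Dynll1 was higher by 0.63 at P21, and the kinesin light chain Klc1 by 0.74 at P35. Kif1c, by far the most abundant of these at 1215 ± 131 CPM in WT, was lower in KO at P35, at 775 ± 49.9 CPM (1.54-fold).

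**Figure D4:**
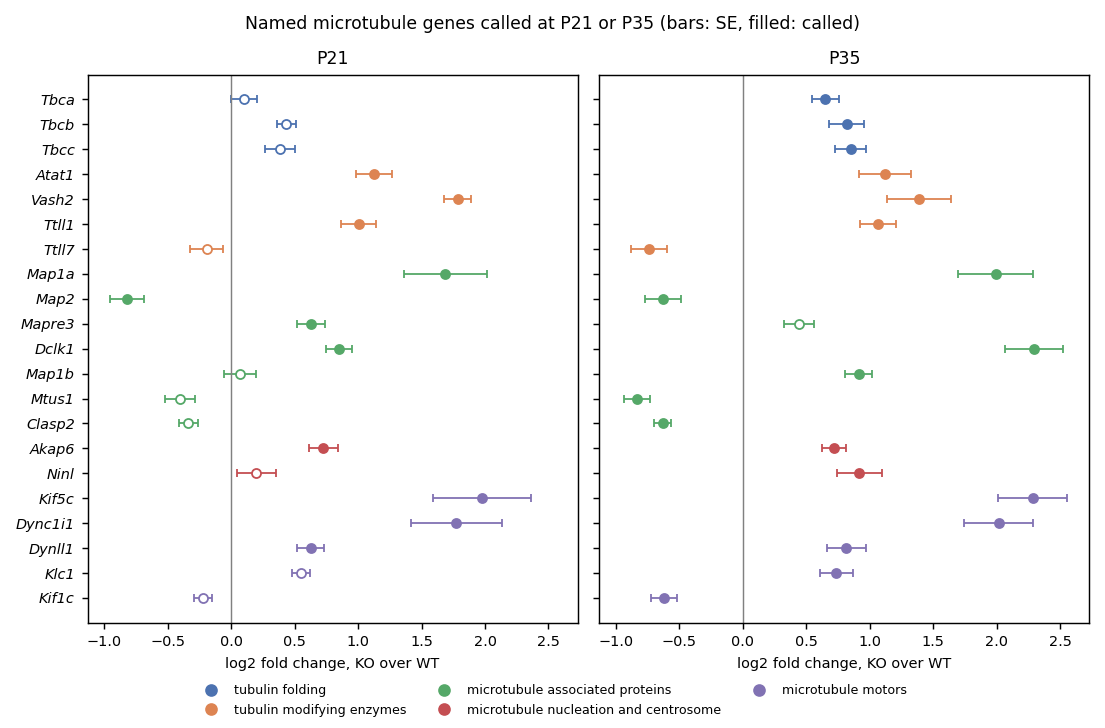
Log2 fold change of KO over WT at P21 and P35 for 21 named genes of the microtubule lists, coloured by list, with bars for the SE and filled points for called genes. Vash2, Atat1 and Ttll1 are filled and to the right of 0 at both ages, and the folding cofactors Tbca, Tbcb and Tbcc are filled at P35 only, while Ttll7, Mtus1, Clasp2 and Kif1c are filled to the left of 0 at P35.

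The genes whose log2 CPM was most like that of Tubb6 over all 32 libraries were Rrad (Pearson r = 0.952), Ubash3b (0.947), Sox11 (0.944), Nes (0.939) and Dusp2 (0.931). Over the 24 libraries from P14 to P35 they were Pgd (0.958), Rrad (0.957), Pvr (0.952), Krt8 (0.951) and Ttc9 (0.950). For Tuba8 the nearest genes were Tmem50b (0.992), Foxo6 (0.988), Ide (0.988), Slc9a8 (0.986) and Extl1 (0.986) over all libraries, and Abce1 (0.909), Foxk2 (0.906), Zfp672 (0.905), Gm5499 (0.890) and Lman2 (0.885) from P14 to P35. Among the members themselves, Tuba4a was the nearest to Tuba8 over all 32 libraries (r = 0.943). The libraries fall into 8 groups of genotype and age, so these correlations describe shared differences between groups.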

How the data were processed

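Poly(A) RNA-seq libraries of tibialis anterior muscle were analysed, 4 per genotype and age and 32 in all. The authors deposited RSEM expected counts per gene, 4.26% of them not whole. The submitters' processing notes name STAR 2.6.1, RSEM 1.2.22, GRCm38 and DESeq2, and the study's methods also name HTSeq. The annotation release is not given in the sources used here. Counts were rounded, filtered with edgeR's filterByExpr and scaled by TMM. KO and WT were compared at each age in the 8 libraries of that age, testing 15179 to 18100 genes with the quasi-likelihood test of edgeR 4.0.16 in R 4.3.3 (two-sided, Benjamini-Hochberg adjustment). Age steps and differences of the KO effect came from a fit of all 32 libraries. A call needed an adjusted P under 0.01 and a fold change beyond 1.5 (differences of effects, the P alone). CPM is on the TMM scale of all libraries. Python 3.11.15 read sequences from GENCODE M21.

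All 10 members are named in every comparison or counted in it. Of the 6 related lists, genes called at an age were named, at most the 4 of smallest adjusted P per list and age, and cell type markers were used as lists. Members, lists and rules were chosen with earlier results of these data known. Replicates were distinct libraries (chi-square per degree of freedom 9.80 to 234 within groups). At P14 same-numbered WT and KO libraries deviated from their group means together over genes (r = 0.42, 0.47, 0.30 and 0.73), so the blocked fit stands beside P14 results that it changes. The labels give the numbers but no shared litter or batch. Alternatives were DESeq2 1.42.0, other scalings, filters and thresholds, the block and leaving out libraries. The tests were run on simulated data before use.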

Additional observations from a re-analysis of the deposited data

Results flagged for a closer look

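In 7 of 80 sets of 4 libraries (10 members in 8 groups) the highest or lowest library lay apart from the other 3, with a gap to the nearest above Dixon's critical share of the range, where chance alone gives about 1 in 20, or 4.0. Tubb2a in KO P35 replicate 1 was low at 22.8 CPM, with the next library at 32.2. Tubb4b was low in WT P35 replicate 3, at 124 CPM against 192 for the next, and in KO P1 replicate 3, at 97.6 against 105. Tuba1a was high in KO P1 replicate 4, at 413 CPM against 336. In that library the summed immature fibre markers were 7444 CPM, below the 16050 CPM or more of the WT libraries of P1, and 7 neuron markers summed to 22.5 CPM, against 2.41 to 3.32 CPM in the other libraries of P1. The part of these cells in the Tuba1a level was not tested. Tuba4a was high in WT P14 replicate 4, at 352 CPM against 302, the replicate in which the other 9 members were lowest, and low in KO P21 replicate 2, at 609.9 against 650.2. Tuba8 in WT P1 replicate 3 was high at 10.02 CPM, against 4.48. That library had the highest keratinocyte marker sum of P1, 7104 CPM, against 2245 to 2934 CPM in the other WT libraries. In KO at P1 the Tuba8 levels of replicates 1 to 4 were 7.77, 7.55, 3.98 and 5.67 CPM and the keratinocyte sums 5851, 5233, 1952 and 4046 CPM, and the part of these cells in the Tuba8 level was not tested.

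The KO effect on Tubb6 differed between ages, by 2.21 on the log2 scale for P35 against P14 in edgeR's test of that difference (SE 0.300, adjusted P = 1.41e-05), and all 4 KO libraries were above all 4 WT libraries at either age.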

How the results depend on the processing

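Counts of called members, the Tuba1 ratio and the Tubb6 share difference were recomputed, and 233 of these values stayed the same while 28 moved. A count stayed the same within 1.5 times the reported count, and the ratio and the share difference within the SD between libraries. Among values of single members 1275 kept their direction and their side of the threshold, 35 gained a call, 13 lost it and 15 changed sign. In KO against WT at P14 the count went from 0 to 1 with DESeq2 and with the replicate block. At P35 it went from 5 to 8 with library totals, beside the counts of all genes with that scaling given above. At an adjusted P under 0.05 with no fold threshold it went to 10, and the share of all genes under that rule is not given here. The P21 to P35 step in WT gave 1 in place of 2 with library totals and with the 8 libraries of the step fitted alone. In KO that step gave 1 in place of 0 with DESeq2 and with its 8 libraries, and the P14 to P21 step 2 in place of 1 with DESeq2. For the KO effect at P35 minus that at P21 DESeq2 called 1 in place of 0, and for P35 minus P14 both DESeq2 and library totals called 2 in place of 1. The log2 ratio of the Tuba1 sum at P35, 0.79, became 1.21 with library totals, and the Tubb6 share difference of 21.0 percentage points became 19.7 with all exons as length. Library totals moved the median of all genes to 0.20 at P21 and to 0.44 at P35. From P1 to P14 they moved it to -0.87 in WT and -0.81 in KO, where 1659 and 1758 genes were called higher and 10431 and 10210 lower. With TMM these were 4495 and 4561 higher and 5450 and 5425 lower. Signs turned for Tuba4a with library totals (0.0552 at P21, 0.0418 at P35), for Tubb5 in KO from P21 to P35 with library totals (0.0233) and for Tuba1c at P1 in the fit of 32 libraries (-0.0004).

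Leaving out 1 library at a time gave counts of 1 to 2 at P21 and 5 to 6 at P35, 9 to 10 for P1 to P14 in KO, 1 to 2 for P14 to P21 in either genotype and for P21 to P35 in WT, 0 to 1 for the KO effect at P35 minus P21 (1 without KO P35 replicate 1) and 1 to 2 for P35 minus P14 (Tuba1c joined without WT P14 replicate 4 or KO P14 replicate 1). In the P14 to P21 step of KO, Tubb6 joined without KO P21 replicate 3. The Tuba1 ratio ran from 0.70 to 0.88 and the Tubb6 share difference from 18.6 to 22.9. Uncalled differences changed sign within -0.143 to 0.0243 (Tubb6), -0.0744 to 0.0815 (Tuba1c) and -0.0076 to 0.5437 (Tuba8) at P1, -0.0676 to 0.4634 (Tubb2b) and -0.0226 to 0.1394 (Tuba4a) at P14, and -0.0044 to 0.4934 (Tubb2b) and -0.0175 to 0.2173 (Tubb5) at P21. The cause of these changes was not tested. At P1, P21 and P35 the replicate numbers are shared by number only (mean correlation of deviations -0.14, 0.12 and 0.07), and the replicate block gave 0, 2 and 6 called members.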

Other observations

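The 10 other tubulin genes of the mouse that were listed, among them the gamma tubulins of the nucleating complex and the neuronal Tubb3, had a summed level of 22.5 to 25.2 CPM in WT at P1 and 42.0 to 44.9 CPM in WT at P35, against 29.2 to 33.4 CPM in KO at P35. These sums are on the TMM scale. Tuba3a and Tubal3 were listed at 0 in all libraries of several groups from P14 on. None of those tested was called between genotypes at any age by edgeR or DESeq2, with 2 of 6 at an unadjusted P under 0.05 at P35.

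The companion lists also changed from P1 to P14. Of 21 tubulin folding genes 7 were called higher in WT and 8 in KO, and none lower. Of 20 modifying enzymes 5 were higher and 8 lower in WT, and 5 higher and 6 lower in KO. For the motors, 7 of 20 were higher and 4 lower in either genotype. The shares of all genes called in this step were 24.2% higher and 29.3% lower in WT, and 24.5% and 29.2% in KO.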
